A study of Mus musculus with 6 samples.

Results

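The genes described here are 36 components of the cellular defence against oxidants: the transcription factor NRF2 (encoded by Nfe2l2) with its regulators and marker targets, the glutathione system, the thioredoxin and peroxiredoxin system, the superoxide dismutases with catalase, and Aifm2. They were taken by symbol from a deposited table of 19832 genes, and each symbol matched 1 row. The libraries came from EO771, a mouse mammary tumour cell line. Untreated EO771 cells (Control, 3 libraries) were compared with EO771 cells given recombinant lipocalin-2 protein (LCN2, 3 libraries), and no genetic change separates the groups in the labels. The labels give no dose, exposure time or vehicle and do not say whether replicates were separate cultures, so p-values measure the spread between these libraries, which may be technical.

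NRF2 is a transcription factor that the adaptor KEAP1 holds in the cytosol and hands to a CUL3 ubiquitin ligase. When oxidants or electrophiles modify KEAP1, NRF2 accumulates, pairs with small MAF proteins and activates genes through antioxidant response elements, while BACH1 competes for the same elements. Its targets feed a linked pair of reducing chains, glutathione and thioredoxin, both of which draw electrons from NADPH to remove peroxides and repair oxidised thiols. In tumour cells these chains are known to buffer metabolic oxidants and to limit ferroptosis, a death by lipid peroxidation.

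Values are FPKM, fragment numbers divided by transcript length and by the library total, a unit inferred from the table. Changes are differences of log2(FPKM + 1), LCN2 minus control, after the libraries were scaled to each other. They were tested with limma across the 10309 genes whose mean reached 1 FPKM, and a gene was called at a Benjamini-Hochberg adjusted p under 0.05. Markers of the labelled cell type were present apart from Cdh1: keratin, claudin and Epcam transcripts summed to between 1190 and 1260 FPKM in every library, whereas Cdh1 averaged 0.148 FPKM. Mast cell markers were near 0: of the 6 with a row, 5 were listed at 0 in every library, and the sum of all 6 was at most 0.111 FPKM in control and 0.153 FPKM in LCN2 libraries. Mitochondrial mRNAs took between 8.82% and 9.03% of summed FPKM. LCN2 replicate 2 stood apart from its group: on the first principal component of all tested genes it was at 4.33, with the other LCN2 libraries at 15.7 and 16.5 and the controls between -17.3 and -8.09. Results without it are given beside those with it, and Control 1 or LCN2 2 stands for the replicate of that number where a library was dropped from a fit.

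All 36 redox genes passed the filter on low values, with means between 2.68 and 424 FPKM. The balance of changes was downward: 11 genes fell, 3 rose and 22 did not pass. Across all tested genes 21.4% were called, 11.6% higher and 9.87% lower, whereas among the redox genes 38.9% were called, 8.33% higher and 30.6% lower. Their median change was -0.09, beside -0.0013 for all tested genes, and no gene changed by as much as 2 fold in mean FPKM. In 21 of the 36 redox genes (58.3%) every scaled LCN2 value lay on one side of every control value, beside 44.5% of all tested genes. Since these are bulk samples, fewer cells of a kind and less RNA per cell cannot be told apart.

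Without scaling between libraries 3 redox genes were higher and 15 lower, while over all genes the calls turned from 1192 higher and 1017 lower to 693 higher and 1680 lower. With equal column sums the redox counts were 3 and 11, and those of all genes 950 and 1308. The redox counts became 2 higher and 3 lower without control replicate 1 (6.04% of all genes called), 2 and 3 without control replicate 3 (4.46%), 2 and 1 without LCN2 replicate 1 (2.55%) and 2 and 2 without LCN2 replicate 3 (4.63%). Without LCN2 replicate 2 they were 5 higher and 14 lower (30.6% of all genes called). In 10 of the 11 genes that fell, LCN2 replicate 2 had the highest value of its group, and in all 3 that rose it had the lowest. Of the 14 called genes, only Osgin1, Gsto1 and Cat passed whichever of the 6 libraries was dropped.

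**Figure D1:**
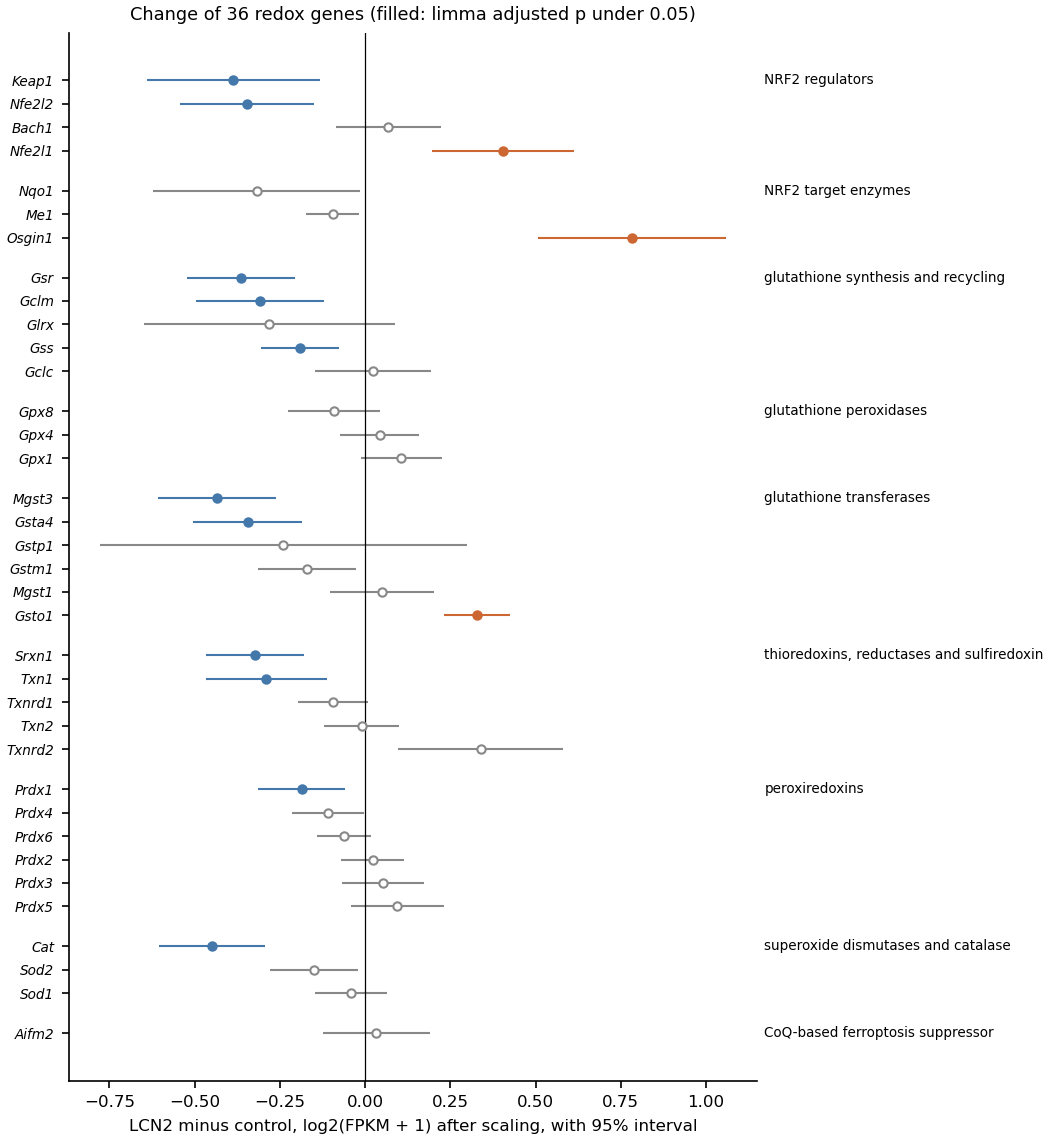
Change of each of the 36 redox genes (LCN2 minus control, log2(FPKM + 1) after scaling), as a point with its 95% interval, ordered by role. Filled points passed (11 lower in blue, 3 higher in orange), open grey points did not, and Osgin1 lies farthest to the right at 0.78.

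Among the regulators, the genes for NRF2 and its inhibitor fell while the gene for the related factor NRF1 rose. Nfe2l2 (chromosome 2, 75675513 to 75704641, GRCm38) had 80.6, 73.0 and 72.7 FPKM in control libraries and 54.0, 64.1 and 52.2 FPKM in LCN2 libraries. The groups did not overlap, and LCN2 replicate 2 was the closest to the controls (log2 fold change -0.35, SE 0.08, adjusted p = 0.029). Keap1 (chromosome 9, 21229730 to 21239361), the adaptor that marks NRF2 for degradation, had 17.2, 13.9 and 15.3 FPKM in controls and 10.2, 12.8 and 10.4 FPKM with LCN2. It too fell without overlap, with control replicate 2 and LCN2 replicate 2 nearest to each other (-0.39, SE 0.11, adjusted p = 0.043). Dropping Control 1, Control 3, LCN2 1 or LCN2 3 ended both calls, with an adjusted p of at most 0.10 for Nfe2l2 and 0.14 for Keap1, while without LCN2 2 the changes were -0.43 and -0.47 (adjusted p = 0.0068 and 0.019). With no filter on low values neither passed (adjusted p = 0.057 and 0.082), and Keap1 also missed the threshold without a variance trend (adjusted p = 0.055). Exons of Keap1 overlap those of a gene on the opposite strand, and the table cannot separate such reads.

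Nfe2l1 (chromosome 11, 96817414 to 96829968) encodes NRF1, a membrane-anchored relative of NRF2 known for inducing proteasome genes. It had 48.2, 58.1 and 50.6 FPKM in controls and 70.2, 58.4 and 71.7 FPKM in LCN2 libraries, and rose by 0.40 on the log2 scale (SE 0.09, adjusted p = 0.022). In LCN2 replicate 2 it was only just above control replicate 2. Without that library the change was 0.50 (adjusted p = 0.0030), and without Control 1, Control 3, LCN2 1 or LCN2 3 it did not pass (adjusted p between 0.073 and 0.086). The ratio of Nfe2l1 to Nfe2l2 FPKM within a library, which scaling by a single factor per library cannot alter, was 0.599, 0.797 and 0.696 in controls and 1.30, 0.910 and 1.37 with LCN2. The ratio of Nfe2l2 to Keap1 FPKM lay between 4.68 and 5.24 in controls and between 5.02 and 5.27 with LCN2, so these ranges overlapped. Both ratios were chosen after the values were seen and were not tested. Bach1, the competing repressor, had 4.03 ± 0.00878 FPKM (SD, n = 3) in controls and 4.10 ± 0.275 FPKM (n = 3) with LCN2, and its 95% interval of change ran from -0.09 to 0.22 (adjusted p = 0.47).

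**Figure D2:**
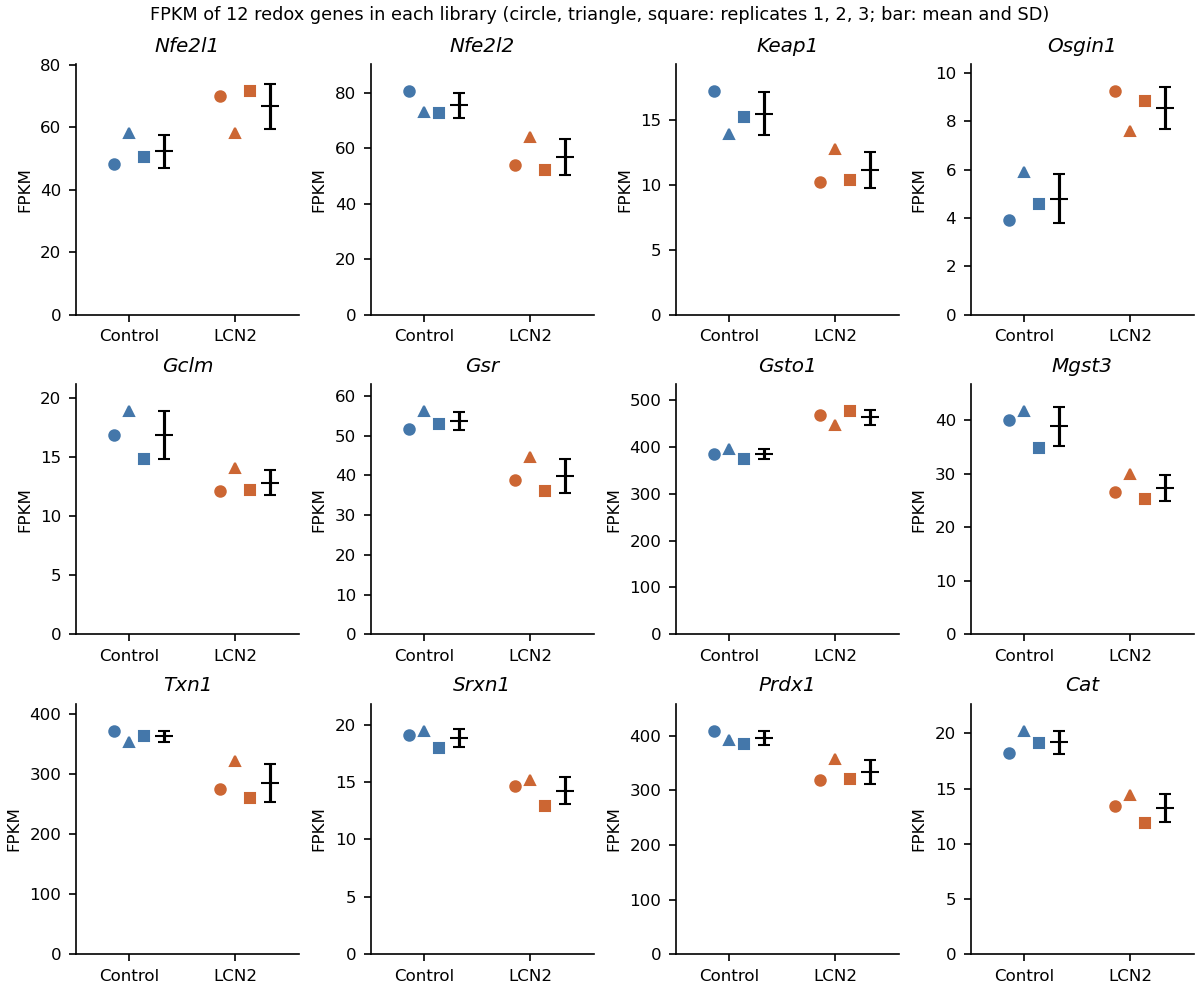
FPKM as deposited for 12 of the genes, 1 point per library (circle, triangle and square for replicates 1, 2 and 3) with the mean and SD of each group as a black bar, on axes that start at 0. The groups do not overlap in any of these panels, and the LCN2 triangle (replicate 2) is the nearest to the controls in all of them.

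Of the 3 marker targets of NRF2, Osgin1 rose and the other two had lower means that did not pass. Osgin1 (chromosome 8, 119434124 to 119446256) encodes an oxidative stress-induced growth inhibitor. It had 3.91, 5.91 and 4.57 FPKM in controls and 9.25, 7.58 and 8.82 FPKM with LCN2, the largest change of the 36 genes (0.78, SE 0.12, adjusted p = 0.0095). All LCN2 libraries were well above all controls, and the call held whichever library was dropped, at an adjusted p of at most 0.049. With the replicate number as a block Osgin1 did not pass (adjusted p = 0.051). Nqo1, the quinone reductase often used as a readout of NRF2 activity, had 6.05, 6.16 and 5.68 FPKM in controls and 3.44, 5.61 and 4.32 FPKM with LCN2. LCN2 replicate 2 lay next to the controls, and the change of -0.32 did not pass (95% interval -0.62 to -0.01, adjusted p = 0.11), whereas without that library it was -0.46 and passed (adjusted p = 0.014). Me1, the cytosolic malic enzyme that forms NADPH, was abundant, with 140 ± 6.35 FPKM in controls and 126 ± 3.11 FPKM with LCN2 (-0.10, adjusted p = 0.079). Its call appeared when values were left unscaled (adjusted p = 0.048) and after quantile normalization (adjusted p = 0.038). Exons of Me1 overlap those of a gene on the opposite strand.

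To show the DNA near their start sites, promoters of the 36 genes were taken from RefSeq (GRCm38.p6), from 250 bases before to 50 bases after each start. They were searched for TGACNNNGC, the core of the antioxidant response element, on both strands. In all 45 promoters of 32 genes were found, and Gclc, Gsr, Gsta4 and Prdx6 had none in the table. A match was in a promoter of 8 genes: Nfe2l2, Gclm, Srxn1 and Prdx1, which fell, and Me1, Mgst1, Txnrd1 and Sod1, which did not pass. It was in 12.4% of all 32851 promoters and in a promoter of 17.1% of the tested genes that have one. In Me1 and Prdx1 the match also holds TGACTCA, the element bound by AP-1 factors, which is in 5.2% of all promoters on either strand. TGACTCA itself was in a promoter of 6 of the 32 genes: Osgin1, which rose, Prdx1 and Srxn1, which fell, and Me1, Glrx and Gstp1, which did not pass. The 5.2% counts promoters, of which a gene may have several, so it is not a like measure. A share per gene was not computed for TGACTCA. The windows below run from base -250 to base -81 before the RefSeq start, 5′ to 3′ on the gene's strand. Capitals mark the match to TGACNNNGC in the 3 genes that fell and have one in this window, and TGACTCA in Osgin1, the gene with the largest rise, which has no match in its promoter window. That Osgin1 window lies inside the annotated gene, which starts at base 119434124, so DNA before that start was not searched.
Nfe2l2 (chr2:75704744-75704913, minus strand, match from base -240): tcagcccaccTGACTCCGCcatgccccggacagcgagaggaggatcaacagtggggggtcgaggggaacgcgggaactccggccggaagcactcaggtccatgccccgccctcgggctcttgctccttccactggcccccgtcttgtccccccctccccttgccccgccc
Gclm (chr3:122245307-122245476, plus strand, match from base -134, on the opposite strand): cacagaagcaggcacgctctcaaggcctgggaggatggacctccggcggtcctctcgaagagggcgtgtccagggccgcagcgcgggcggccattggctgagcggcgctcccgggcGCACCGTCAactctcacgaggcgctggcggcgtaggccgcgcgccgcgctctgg
Prdx1 (chr4:116685349-116685518, plus strand, match from base -133, on the opposite strand): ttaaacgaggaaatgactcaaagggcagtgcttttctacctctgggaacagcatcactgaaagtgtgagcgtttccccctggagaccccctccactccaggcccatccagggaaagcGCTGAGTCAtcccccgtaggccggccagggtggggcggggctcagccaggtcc
Osgin1 (chr8:119436897-119437066, plus strand, TGACTCA from base -97): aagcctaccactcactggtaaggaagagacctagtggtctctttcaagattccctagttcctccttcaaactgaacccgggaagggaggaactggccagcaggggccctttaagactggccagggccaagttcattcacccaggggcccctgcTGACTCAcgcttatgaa
The Prdx1 window holds a further TGACTCA from base -237, left in lower case. Such matches describe letters in these windows and not bound sites.

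In the glutathione system of 14 genes, 5 fell and 1 rose, with a median change of -0.18, which made 42.9% called beside 21.4% of all tested genes. The falls numbered 2 without Control 1 or Control 3, 3 without Control 2, 0 without LCN2 1, 6 without LCN2 2 and 1 without LCN2 3. As given above, the share of all genes called also fell without Control 1, Control 3, LCN2 1 or LCN2 3. It rose without LCN2 2. The falls were in genes that make and recycle the tripeptide and in 2 transferases, and the rise was in the transferase Gsto1. Summed FPKM of the 14 genes lay between 1002 and 1033 in controls and between 997 and 1065 with LCN2. The group sums as deposited therefore overlapped, with Gsto1 making up the largest part of them in every library. These sums were not scaled between libraries. The scaling factors that divide the values were 1 to 1.06 in controls and 0.970 to 0.989 with LCN2. Scaling therefore raises the LCN2 sums relative to the control sums, and the overlap may not hold after it.

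Glutathione is built by glutamate-cysteine ligase, whose modifier subunit is Gclm and whose catalytic subunit is Gclc, and then by glutathione synthetase, Gss. Gclm (chromosome 3, 122245557 to 122270732) had 16.9, 18.9 and 14.8 FPKM in controls and 12.2, 14.1 and 12.3 FPKM with LCN2, and fell by 0.31 (SE 0.08, adjusted p = 0.035). Its groups did not overlap, though control replicate 3 was close to LCN2 replicate 2. Its call ended when Control 1, Control 2, LCN2 1 or LCN2 3 was dropped (adjusted p at most 0.12) and with no filter (adjusted p = 0.064), and its exons overlap those of 2 other annotated genes. Gclc had 10.1, 11.4 and 10.7 FPKM in controls and 9.68, 11.8 and 9.99 FPKM with LCN2, with full overlap and an interval of change from -0.15 to 0.19 (adjusted p = 0.84). The sign of its change of 0.02 turned negative without scaling and with equal column sums. The ratio of Gclc to Gclm FPKM within a library was between 0.595 and 0.721 in controls and between 0.796 and 0.837 with LCN2, a comparison chosen after the values were seen and not tested.

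Gss (chromosome 2, 155563181 to 155592810) had 24.3, 26.8 and 26.6 FPKM in controls and 21.2, 22.5 and 21.2 FPKM with LCN2, a fall of small size but without overlap (-0.19, SE 0.05, adjusted p = 0.034). It passed again only when the library dropped was LCN2 2, and not without Control 1, Control 2, Control 3, LCN2 1 or LCN2 3 (adjusted p between 0.058 and 0.12). Its exons overlap those of Acss2 on the opposite strand. Glutathione reductase, Gsr (chromosome 8, 33652523 to 33698163), returns oxidised glutathione to its reduced form with NADPH. Its values of 51.8, 56.2 and 52.9 FPKM in controls and 38.9, 44.5 and 36 FPKM with LCN2 gave a fall of 0.36 (SE 0.07, adjusted p = 0.015), with the groups well apart. Without Control 3 or LCN2 1 it no longer passed (adjusted p = 0.060 and 0.067). Glutaredoxin, Glrx, which reduces protein-glutathione disulfides, was low, with 3.79, 2.55 and 2.93 FPKM in controls and 2.04, 2.95 and 1.85 FPKM with LCN2. Its groups overlapped and it did not pass (-0.28, 95% interval -0.65 to 0.09, adjusted p = 0.23).

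Glutathione peroxidases use glutathione to reduce peroxides, GPX4 acting on lipid peroxides in membranes. Of the 3, 0 passed (at an unadjusted limma p under 0.05 also 0), beside 21.4% of all tested genes called. Gpx4, among the most abundant of the redox genes, had 217, 204 and 214 FPKM in controls and 209, 213 and 204 FPKM with LCN2. These ranges lie on top of each other, and the interval of its change was -0.07 to 0.16 (adjusted p = 0.56), with a sign that depended on the scaling. Gpx1, the cytosolic enzyme, had 60.7 ± 3.29 FPKM in controls and 62.6 ± 3.25 FPKM with LCN2 (0.11, adjusted p = 0.16), and passed without LCN2 replicate 2 (0.15, adjusted p = 0.042). Gpx8, a peroxidase of the endoplasmic reticulum, had 36.1 ± 0.795 FPKM in controls and 32.5 ± 2.20 FPKM with LCN2 (-0.09, adjusted p = 0.28).

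The transferases, which couple glutathione to electrophiles, went both ways: 1 of 6 rose and 2 fell. Among all tested genes 11.6% were higher and 9.87% lower. Gsto1 (chromosome 19, 47854970 to 47864790), an omega-class enzyme that also reduces dehydroascorbate and glutathionylated proteins, had the highest mean over all 6 libraries of the 36 genes, though Prdx1 was higher in controls (395 against 384 FPKM). It rose from 385, 395 and 374 FPKM in controls to 468, 446 and 477 FPKM with LCN2 (0.33, SE 0.04, adjusted p = 0.0058). The call held with any library dropped, and LCN2 replicate 2 was again the lowest of its group. Mgst3, a microsomal member (chromosome 1, 167371966 to 167393841), fell from 40.0, 41.7 and 34.7 FPKM to 26.5, 29.9 and 25.3 FPKM (-0.43, SE 0.07, adjusted p = 0.012). Gsta4 (chromosome 9, 78182774 to 78209349), which acts on the lipid peroxidation product 4-hydroxynonenal, fell from 7.02, 7.71 and 6.70 FPKM to 5.47, 5.41 and 4.68 FPKM (-0.35, SE 0.07, adjusted p = 0.017). In both, every LCN2 library was below every control. Mgst3 missed the threshold when LCN2 1 or LCN2 3 was dropped (adjusted p = 0.059 and 0.051), and Gsta4 when Control 1, Control 3, LCN2 1 or LCN2 3 was (adjusted p between 0.054 and 0.060).

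Gstm1 had 53.1 ± 1.56 FPKM in controls and 45.3 ± 4.23 FPKM with LCN2 and did not pass (-0.17, adjusted p = 0.086), but did so unscaled (adjusted p = 0.046) and without LCN2 replicate 2 (-0.22, adjusted p = 0.029). Gstp1 varied most between replicates, with 91.1, 106 and 130 FPKM in controls and 85.9, 124 and 62.6 FPKM with LCN2. LCN2 replicate 2 lay inside the control range and the other LCN2 libraries below it, and the change did not pass (interval -0.78 to 0.30, adjusted p = 0.47), nor did it without LCN2 replicate 2 (-0.48, adjusted p = 0.084). Its near copy Gstp2, at 2.40 ± 0.864 FPKM in controls and 5.0 ± 1.96 FPKM with LCN2, also did not pass (adjusted p = 0.052). Reads that these similar genes share may have been divided between them, so both values are uncertain, and the same holds for Gstm1 and its relatives. Mgst1 was at 7.80 ± 0.554 FPKM in controls and 7.77 ± 0.352 FPKM with LCN2 (interval -0.10 to 0.20, adjusted p = 0.60).

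In the thioredoxin and peroxiredoxin system of 11 genes, 3 fell and 0 rose, with a median change of -0.06. The 27.3% called was not far from the 21.4% of all tested genes. Summed FPKM of the 11 genes was 1447, 1446 and 1418 in controls and 1228, 1323 and 1213 with LCN2. Thus the whole sum, of FPKM before scaling, was lower in each LCN2 library than in each control. Txn1 and Prdx1 held more than any other gene in it. The 3 falls became 0 when Control 1, Control 3, LCN2 1 or LCN2 3 was dropped, 1 with no filter or no variance trend, and 4 beside 1 rise without LCN2 2. Over all genes the share called likewise fell in each of those 4 fits and rose without LCN2 2, and fewer genes were lower with no filter.

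Thioredoxin 1, Txn1 (chromosome 4, 57943373 to 57956411), is the cytosolic protein that reduces disulfides in peroxiredoxins and other targets. It had 372, 352 and 362 FPKM in controls and 274, 321 and 260 FPKM with LCN2, and fell by 0.29 (SE 0.08, adjusted p = 0.036). The groups did not overlap. The call ended without Control 1, Control 3, LCN2 1 or LCN2 3 (adjusted p between 0.11 and 0.12), with no filter (adjusted p = 0.071) and with no variance trend (adjusted p = 0.054), and without LCN2 2 the change was -0.37 (adjusted p = 0.0058). Its mitochondrial counterpart Txn2 had 52.8, 52.7 and 49.8 FPKM in controls and 50.5, 47.6 and 49.7 FPKM with LCN2, with overlapping groups and an interval of change from -0.12 to 0.10 (adjusted p = 0.90). The ratio of Txn1 to Txn2 FPKM was between 6.69 and 7.28 in controls, 5.43 and 5.23 in LCN2 replicates 1 and 3 and 6.74 in LCN2 replicate 2, so this last library fell inside the control range.

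Thioredoxin reductases pass electrons from NADPH to thioredoxin. Cytosolic Txnrd1 had 91.1, 96.2 and 92.4 FPKM in controls and 82.6, 89.1 and 79.6 FPKM with LCN2, and mitochondrial Txnrd2 had 3.64, 3.35 and 3.27 FPKM in controls and 4.13, 3.95 and 5.22 FPKM with LCN2. The groups did not overlap in either gene, in opposite directions, but neither passed (Txnrd1 -0.09, adjusted p = 0.16, and Txnrd2 0.34, adjusted p = 0.054). Both passed without LCN2 replicate 2 (-0.13, adjusted p = 0.037, and 0.41, adjusted p = 0.031), and Txnrd2 also after quantile normalization (adjusted p = 0.047). The ratio of Txnrd2 to Txnrd1 FPKM ranged from 0.0348 to 0.0400 in controls and from 0.0443 to 0.0656 with LCN2, and like the Txn1 ratio was chosen after the values were seen and not tested. Sulfiredoxin, Srxn1 (chromosome 2, 152105516 to 152111376), which restores overoxidised peroxiredoxins, fell from 19.1, 19.5 and 18.0 FPKM to 14.6, 15.2 and 12.9 FPKM (-0.32, SE 0.06, adjusted p = 0.016), with no overlap. With Control 1, Control 3, LCN2 1 or LCN2 3 dropped it no longer passed (adjusted p between 0.0502 and 0.059).

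Most peroxiredoxins reduce hydrogen peroxide with electrons from thioredoxin, and 1 of the 6 fell, beside 9.87% of all tested genes. Prdx1 (chromosome 4, 116685544 to 116700822), a major cytosolic form, had 409, 392 and 384 FPKM in controls and 320, 358 and 322 FPKM with LCN2. Its fall of 0.19 was without overlap and near the threshold (SE 0.05, adjusted p = 0.048). It did not pass without Control 1, Control 3, LCN2 1 or LCN2 3 (adjusted p between 0.11 and 0.16), with the filter at 0.1 FPKM (adjusted p = 0.055), with no filter (adjusted p = 0.085) or with no variance trend (adjusted p = 0.079). Without LCN2 2 the change was -0.23 (adjusted p = 0.016). Prdx4, the form of the endoplasmic reticulum, had 47.8 ± 0.349 FPKM in controls and 42.4 ± 1.53 FPKM with LCN2 and passed unscaled (adjusted p = 0.040) but not after scaling (-0.11, adjusted p = 0.12). Cytosolic Prdx2 (107 ± 2.93 and 104 ± 3.56 FPKM, adjusted p = 0.71) and mitochondrial Prdx3 (67.5 ± 5.44 and 67.0 ± 2.03 FPKM, adjusted p = 0.49) overlapped between groups, and the signs of their changes turned without scaling. For Prdx5 the interval of change was -0.04 to 0.23 (adjusted p = 0.27) and for Prdx6, which acts on phospholipid peroxides, it was -0.14 to 0.02 (adjusted p = 0.22). Exons of Prdx2 overlap those of Junb and those of Prdx5 overlap Trmt112, each on the opposite strand. Within libraries the ratio of Prdx1 to Prdx2 FPKM was between 3.59 and 3.82 in controls and between 3.07 and 3.35 with LCN2, a pair also chosen after the values were seen.

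**Figure D3:**
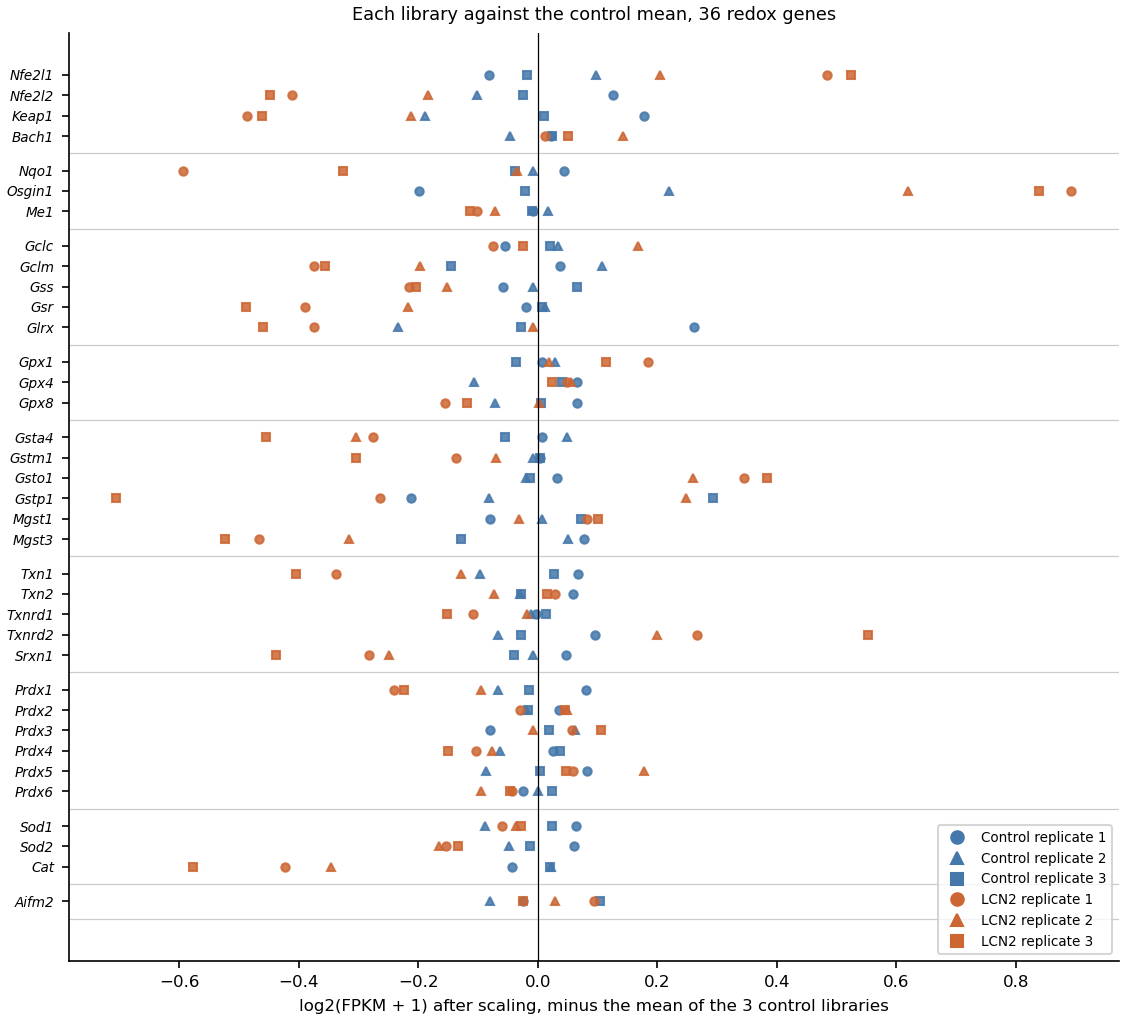
Each library's log2(FPKM + 1) after scaling, minus the mean of the 3 control libraries, for the 36 genes in order of role (blue control, orange LCN2; circle, triangle and square for replicates 1, 2 and 3). In Cat, Srxn1 and Gsta4 all LCN2 points lie to the left of all controls, in Osgin1 and Gsto1 to the right, and the LCN2 triangle lies inside the control points for Nqo1.

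Superoxide dismutases turn superoxide into hydrogen peroxide, which catalase, a peroxisomal enzyme, breaks down. Cat (chromosome 2, 103453849 to 103485160) had 18.2, 20.2 and 19.1 FPKM in controls and 13.4, 14.4 and 11.9 FPKM with LCN2, the largest fall of the 36 genes (-0.45, SE 0.07, adjusted p = 0.0090). The groups were far apart and the call held with any library dropped. Sod1, the cytosolic dismutase, was among the most abundant redox transcripts, with 354 ± 8.15 FPKM in controls and 330 ± 4.87 FPKM with LCN2, and its interval of change ran from -0.15 to 0.06 (adjusted p = 0.53). Sod2, the mitochondrial dismutase and a known target of NF-kB, had 7.57, 7.38 and 7.16 FPKM in controls and 6.24, 6.26 and 6.30 FPKM with LCN2. Every LCN2 library was below every control, yet the change did not pass (-0.15, adjusted p = 0.089) except without scaling (adjusted p = 0.046). Aifm2, whose product FSP1 suppresses ferroptosis by reducing ubiquinone, was at 7.43 ± 0.421 FPKM in controls and 7.31 ± 0.366 FPKM with LCN2 (interval -0.12 to 0.19, adjusted p = 0.75), and its exons overlap those of a gene on the opposite strand.

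Other genes of the pathway were listed by role. Of 8 tested partners of NRF2 and KEAP1, 4 rose and 1 fell (62.5% called, beside 21.4% of all genes), with a median of 0.10. Sqstm1 (p62), which can sequester KEAP1 and is itself an NRF2 target, rose from 144, 180 and 161 FPKM to 310, 236 and 324 FPKM (0.89, SE 0.12, adjusted p = 0.0070) and passed whichever library was dropped. The small MAF genes, whose proteins pair with NRF2, went both ways, Mafk (0.43) and Maff (0.32) rising and Mafg (-0.21) falling. The ligase gene Cul3 rose by 0.16 but did not pass unscaled (adjusted p = 0.22) or equal column sums (adjusted p = 0.077). Of 14 further NRF2 targets 2 rose and 4 fell (42.9%), with a median of -0.05. Fth1, the ferritin heavy chain that stores iron, fell from 854, 892 and 836 FPKM to 673, 708 and 682 FPKM (-0.26, SE 0.03, adjusted p = 0.0057), with any library dropped too. The carbonyl reductase Cbr1 (-0.43), the UDP-glucose dehydrogenase Ugdh (-0.30) and the epoxide hydrolase Ephx1 (-0.18) fell. The cystine transporter gene Slc7a11 (0.75) and Trib3 (1.56), both also known targets of ATF4, rose, and Hmox1 had 15.9 ± 0.880 FPKM in controls and 14.4 ± 0.70 FPKM with LCN2 (adjusted p = 0.50).

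Of 8 enzymes that form NADPH or belong to the pentose phosphate path, such as Tkt and Taldo1, 2 fell and 1 rose. Among all tested genes 21.4% were called. The falls were in G6pdx, the entry enzyme of that path (48.5 ± 1.28 to 34.2 ± 3.55 FPKM, -0.44, adjusted p = 0.011), and cytosolic Idh1 (-0.44). The mitochondrial folate enzyme Mthfd2 rose by 0.95. The median of the list was -0.15. The falls numbered 6 of 8 without scaling, 3 with equal column sums and 4 without LCN2 2. Calls over all genes also shifted downward without scaling and with equal column sums, and a larger share of all genes was called without LCN2 2. Genes of glutathione supply and turnover gave 4 rises and 1 fall among 20 tested, with a median of 0.11, and the 25% called was near the 21.4% of all genes. The falls numbered 3 without scaling, with equal column sums and after quantile normalization. Cth (1.29), which forms cysteine, Ggct (0.91), which acts in glutathione breakdown, Slc3a2 (0.73), the partner chain of the cystine transporter, and the transferase Gstz1 (0.27) rose. Gpx2, a further NRF2 target, fell from 2.41 ± 0.264 to 1.13 ± 0.274 FPKM (-0.65, adjusted p = 0.013). Among 17 tested genes related to thioredoxin 3 rose and 2 fell (29.4%): Txnip, which binds and inhibits thioredoxin (1.5), Sesn2 (0.86) and Txndc5 (0.13) rose, and Msrb1 (-0.34) and Tmx1 (-0.19) fell.

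Of 8 tested genes of ferroptosis and lipid peroxidation 2 rose and 3 fell (62.5%), the latter Tfrc, the transferrin receptor (-0.43), Dhodh (-0.36) and Lpcat3 (-0.17), and the former Coq2 (0.21) and Gch1 (0.21). Selenoproteins and their synthesis, on which GPX4 and the thioredoxin reductases depend, gave 1 rise (Selenow, 0.41) and 2 falls (Sephs2, -0.28, and Selenop, -0.17) among 14, the same 21.4% called as among all genes. Medians of these lists were -0.10 and -0.02. Without scaling Txndc5, Coq2 and Gch1 did not pass (adjusted p = 0.26, 0.12 and 0.13).

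Of the 32 genes called in these lists, Sqstm1, Fth1, Cth and Ggct passed whichever library was dropped. With the replicate number as a block Ggct did not pass (adjusted p = 0.051). G6pdx did not pass without LCN2 1 (adjusted p = 0.055), nor Gpx2 without LCN2 1 or LCN2 3 (adjusted p at most 0.053). Txnip, Slc3a2 and Gstz1 did not pass without Control 3, LCN2 1 or LCN2 3 (adjusted p at most 0.089, 0.064 and 0.068). The remaining 23 did not pass without Control 1, Control 3, LCN2 1 or LCN2 3, with an adjusted p of at most 0.15. Of these, Cul3, Ephx1, Ugdh, Txndc5, Tmx1, Msrb1, Lpcat3, Gch1, Dhodh, Coq2 and Selenow also missed the threshold without Control 2. Exons of Sqstm1, Mafk, Mafg, Ephx1, Ugdh, G6pdx, Gstz1, Txnip, Txndc5, Lpcat3, Sephs2 and Selenop overlap those of other annotated genes, so their values may hold reads of both. With no filter on low values Maff, Ugdh, Ephx1, Txnip, Sesn2, Msrb1, Coq2, Gch1, Tfrc, Dhodh and Selenow did not pass (adjusted p between 0.0504 and 0.0738), nor did Cul3, Ephx1, Txndc5 and Gch1 without a variance trend (adjusted p between 0.0536 and 0.078).

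**Figure D4:**
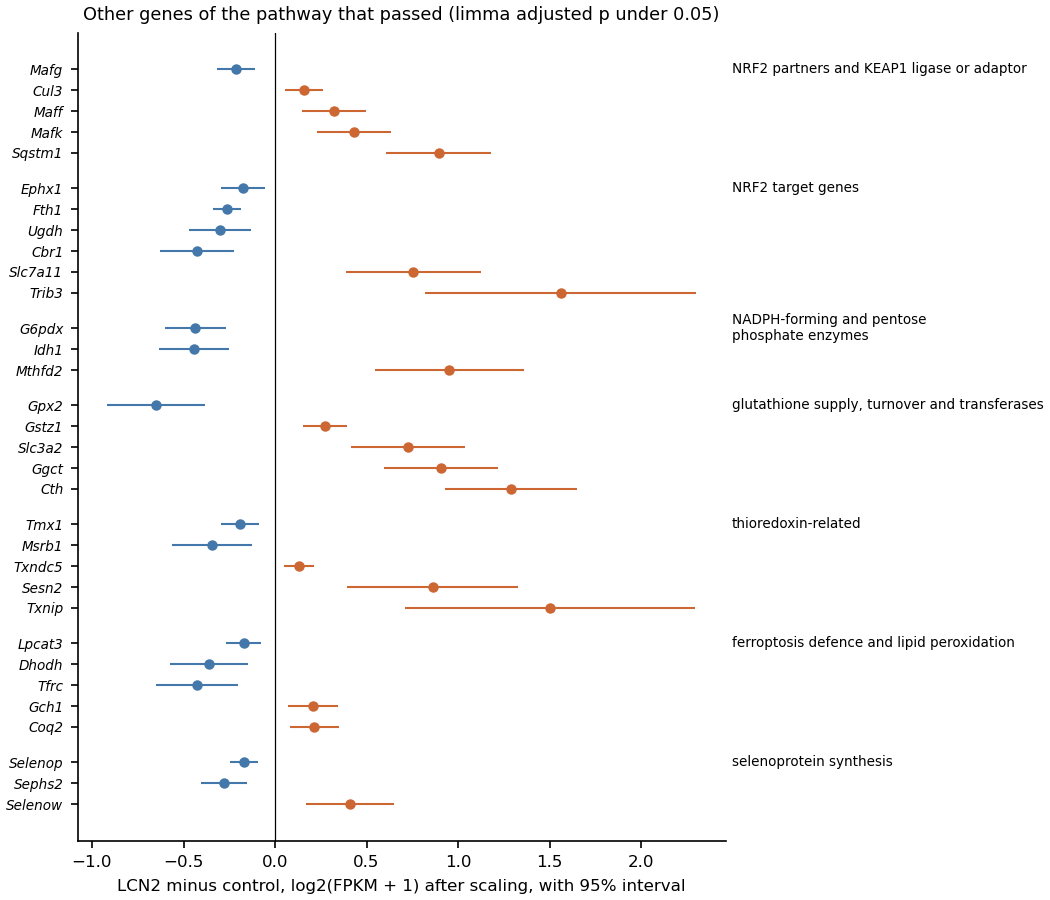
Change (LCN2 minus control, log2(FPKM + 1) after scaling, with 95% interval) of the 32 further pathway genes that passed, by list, orange where higher and blue where lower. Trib3 (1.56) and Txnip (1.5) lie farthest to the right and Gpx2 (-0.65) farthest to the left.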

How the data were processed

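RNA of 6 EO771 libraries (3 Control, 3 LCN2, grouped by title) was sequenced after an RNeasy extraction and a SMARTer mRNA library kit, per the labels' protocols. The authors deposited 1 table whose name speaks of raw counts. However, 0% of values above 0 were whole (tolerance 1e-09), and FPKM times the longest annotated transcript in kilobases summed to between 1032628 and 1095179 per library, so the deposited values were treated as FPKM. The build was GRCm38, per the submitters' processing notes. For the aligner, quantifier and strand setting the sources used here give nothing. Among low genes with 1 annotated transcript the commonest ratio between libraries held 3 to 5 of 507 to 531 genes (log2 tolerance 0.002), so whole reads were not recovered and depth is unknown. Intervals therefore cover the spread between libraries only. Column sums were between 391569 and 410808.

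Values were scaled by unweighted TMM (trims 0.3 and 0.05, factors 0.970 to 1.06) and fitted as log2(FPKM + 1) with limma 3.58.1 in R 4.3.3, with a variance trend, no replicate term, a mean of at least 1 FPKM and Benjamini-Hochberg adjustment over 10309 genes, two-sided. The script was tested on simulated data with 50 genes changed at each fold. It called 36.7% of the tested genes changed 1.25 fold, 74% at 1.5 fold and 91.7% at 2 fold. Small changes can therefore be missed. Fewer genes were changed there than were called here, so these shares need not hold for these data. Group means ± SD (n = 3) are of FPKM as deposited. Coordinates and exon overlaps are from GENCODE M21 (GRCm38). Bases 21 to 50 after the start were found in an annotated transcript for 42 of 45 promoters, which checked their strand.

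The genes, lists and tests were chosen with earlier results of these data known. All 36 genes are named. From each further list the called genes with the smallest adjusted p are named, up to 4 in each direction. Hmox1 and Gstp2 were named, and the TGACTCA search added, after the values were seen.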

Additional observations from a re-analysis of the deposited data

How the results depend on the processing

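Each result was recomputed under 4 other scalings, a pseudocount of 0.1, a filter at a mean of 0.1 FPKM, no filter, no variance trend, the replicate number as a block and without each library. No called redox gene changed sign in any of them. Redox genes called higher numbered 2 to 5 and lower 1 to 14 over the fits without 1 library, and all genes called higher 174 to 1627 and lower 89 to 1528. With values as deposited 693 genes were higher and 1680 lower, and without a filter 6 redox genes and 612 of all genes were lower. In the fit with the replicate block 1 redox gene was higher (Gsto1) and 2 lower (Mgst3 and Cat), and 181 and 86 of all genes. Deviations of same-numbered libraries from their group means correlated at -0.22, -0.26 and 0.0086 for replicates 1, 2 and 3, and not every library correlated best with its own number. With 3 libraries in each group, these correlations cannot decide whether the numbers pair the libraries. A count test on recovered reads was not run, since whole reads were not recovered. Read depth is unknown, so no limit on low genes can be given. Under the remaining alternatives these 4 counts stayed within 1.5 times the reported ones. The cause of these shifts was not tested.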
